A study of Homo sapiens with 4 samples.

Results

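The CDK inhibitor genes of the INK4 and KIP families and their neighbours on chromosome 9p21 were followed in LAD (lung adenocarcinoma) cells. The 8 genes were chosen by symbol, by their family and position, from the 60558 gene identifiers listed in each library. They were the 4 INK4 genes CDKN2A, CDKN2B, CDKN2C and CDKN2D, the 2 KIP genes CDKN1B and CDKN1C, and 2 neighbours of CDKN2A, the enzyme gene MTAP and the antisense lncRNA CDKN2B-AS1. All 8 passed the filter on low values, CDKN2A and CDKN2B through HCC827 alone. RNA had been sequenced from A549 cells carrying myr-AKT1 (A549-myr-AKT1) or the empty vector (A549-vector) and from HCC827 cells carrying myr-AKT1 (HCC827-myr-AKT1) or the empty vector (HCC827-vector). Both are established LAD lines, and myr-AKT1 is an AKT1 held at the membrane by a myristoylation signal, which keeps the kinase active. The vector-control cells had been transduced as well, so no library came from untouched cells. There was 1 library per condition, 4 in all, so no difference within a line has a replicate check, and cells from a single transduced culture stand for each condition.

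INK4 proteins bind CDK4 and CDK6 and keep them from pairing with cyclin D, which leaves RB unphosphorylated and E2F factors held back. KIP proteins bind CDK2 complexes with cyclin E or cyclin A, and they also take part in assembling cyclin D complexes. On 9p21, CDKN2A encodes p16 and, from a distal start and another reading frame, the MDM2 inhibitor ARF. CDKN2B next to it encodes p15, CDKN2B-AS1 (ANRIL) runs antisense to both, and MTAP encodes the phosphorylase that salvages methionine from methylthioadenosine. This stretch is among the most often deleted in human cancers, A549 is known for a homozygous loss of CDKN2A, and AKT is known to act on the KIP protein p27 and on the FOXO factors that drive CDKN1B.

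CDKN2A lay at chr9:21967752-21995301 on the minus strand of GRCh38, CDKN2B at chr9:22002903-22009305 on the same strand, MTAP at chr9:21802636-21937651 on the plus strand and CDKN2B-AS1 at chr9:21994139-22128103 on the plus strand. The other inhibitors lay apart, CDKN2C on chromosome 1, CDKN1C on chromosome 11, CDKN1B on chromosome 12 and CDKN2D on chromosome 19. Start-site windows of 300 bases, from 250 before to 50 after each start, were taken from RefSeq (GRCh38.p14), where 7 of the 8 genes had an entry with 10 windows between them. The 9p21 windows are shown because the lines differed there, and that of CDKN1B because FOXO factors are known to drive it. That of CDKN2D is shown because its values were higher with myr-AKT1 in both lines. Each is written 5′ to 3′ on its gene's strand, and capitals mark the searched motifs, found on either strand: the GC box GGGCGG, the CCAAT box CCAAT, the TATA box TATAAA, the E2F sites TTTCGCGC, TTTGGCGC and TTTCCCGC, and the FOXO sites GTAAACA and ATAAACA.
CDKN2A distal start (chr9:21995275-21995574, minus strand): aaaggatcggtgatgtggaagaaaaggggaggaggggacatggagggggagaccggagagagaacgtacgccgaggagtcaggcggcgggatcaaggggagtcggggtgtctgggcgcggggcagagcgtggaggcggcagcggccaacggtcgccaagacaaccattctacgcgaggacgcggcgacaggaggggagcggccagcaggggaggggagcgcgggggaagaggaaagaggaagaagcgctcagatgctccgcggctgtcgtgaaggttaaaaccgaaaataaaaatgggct
CDKN2A proximal start (chr9:21974808-21975107, minus strand): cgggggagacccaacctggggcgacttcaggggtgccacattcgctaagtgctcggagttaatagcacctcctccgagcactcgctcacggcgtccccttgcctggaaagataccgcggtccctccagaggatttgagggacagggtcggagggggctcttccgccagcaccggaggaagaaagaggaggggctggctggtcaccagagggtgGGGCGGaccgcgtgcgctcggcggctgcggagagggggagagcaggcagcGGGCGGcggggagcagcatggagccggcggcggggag
CDKN2B (chr9:22009256-22009555, minus strand): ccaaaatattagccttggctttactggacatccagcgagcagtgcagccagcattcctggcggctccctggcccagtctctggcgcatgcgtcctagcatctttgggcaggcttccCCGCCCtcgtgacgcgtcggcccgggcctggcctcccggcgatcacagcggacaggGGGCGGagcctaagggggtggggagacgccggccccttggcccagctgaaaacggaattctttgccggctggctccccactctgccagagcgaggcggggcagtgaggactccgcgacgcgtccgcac
CDKN2B-AS1 (chr9:21994541-21994840, plus strand): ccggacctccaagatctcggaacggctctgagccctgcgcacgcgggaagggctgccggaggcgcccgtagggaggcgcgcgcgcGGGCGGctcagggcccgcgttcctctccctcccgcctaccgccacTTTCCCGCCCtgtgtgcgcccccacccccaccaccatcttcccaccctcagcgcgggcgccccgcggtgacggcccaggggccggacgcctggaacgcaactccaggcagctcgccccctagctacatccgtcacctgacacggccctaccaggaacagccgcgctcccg
MTAP (chr9:21802386-21802685, plus strand): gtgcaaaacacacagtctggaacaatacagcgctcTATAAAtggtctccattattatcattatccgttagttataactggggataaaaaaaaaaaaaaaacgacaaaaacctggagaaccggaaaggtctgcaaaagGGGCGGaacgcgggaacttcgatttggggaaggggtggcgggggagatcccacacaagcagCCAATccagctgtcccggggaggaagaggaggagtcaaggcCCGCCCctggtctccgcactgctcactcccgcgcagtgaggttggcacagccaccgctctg
CDKN1B (chr12:12717118-12717417, plus strand): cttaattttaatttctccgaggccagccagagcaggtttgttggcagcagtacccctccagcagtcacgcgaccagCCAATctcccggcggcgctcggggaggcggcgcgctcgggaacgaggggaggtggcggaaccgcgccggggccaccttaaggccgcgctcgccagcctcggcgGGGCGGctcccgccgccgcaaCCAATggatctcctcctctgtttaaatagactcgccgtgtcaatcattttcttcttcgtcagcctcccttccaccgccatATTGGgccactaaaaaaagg
CDKN2D (chr19:10568930-10569229, minus strand): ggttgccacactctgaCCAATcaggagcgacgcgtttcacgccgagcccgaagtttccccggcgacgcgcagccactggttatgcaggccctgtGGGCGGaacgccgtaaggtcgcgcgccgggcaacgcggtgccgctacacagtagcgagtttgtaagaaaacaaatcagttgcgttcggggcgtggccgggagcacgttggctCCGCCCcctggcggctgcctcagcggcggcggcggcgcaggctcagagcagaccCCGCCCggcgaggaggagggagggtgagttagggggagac

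The distal CDKN2A start and the CDKN2B-AS1 start lay 533 bases apart on opposite strands, each gene being transcribed toward and over the start of the other. Both CDKN2A windows, at 63.3% and 69.0% GC, and that of CDKN2B-AS1, at 74.0%, were above the median of 58.7% over all RefSeq windows, whereas that of MTAP had 53.0%. The proximal CDKN2A window held 2 GC boxes and the distal one held none of the searched motifs. CDKN2B held 2 GC boxes, CDKN2D held 3 and a CCAAT box, CDKN1B held 1 and 3 CCAAT boxes, and MTAP held 2 with a CCAAT box and a TATA box. Across all 35116 windows, 15786 held a GC box, 34.6% a CCAAT box and 11.5% TATAAA. The single E2F match, TTTCCCGC at 120 to 113 bases before the CDKN2B-AS1 start, overlapped a GC box, and 1.63% of all windows held it. Neither FOXO site, present in 3.42% and 4.24% of all windows, was found in a window of these genes, CDKN1B included, which says only that these letters are not in these 300 bases.

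Recovered reads per library ranged from 16322183 to 33530317. Normalized counts are reads divided by the deposited size factor of the library. These factors hold within a line only, so values between lines are given on a scale set over all 4 libraries. AKT1 transcript was higher in the myr-AKT1 library of each line, with 6297 against 4243 normalized counts in A549 and 4805 against 2175 in HCC827. All 5 epithelial markers (EPCAM, CDH1, KRT8, KRT18, KRT19) had reads in all libraries. Among the markers of other cell types, the blood markers CD3E and PTPRC and the red cell marker HBB had at most 7 reads in a library, CD3E being at 0 in all. The endothelial marker PECAM1 had 61 reads with myr-AKT1 and 13 with vector in A549, and 84 and 78 in HCC827, and VWF had 0 and 1, and 15 and 10. The fibroblast collagen COL1A1 had 668 and 88 reads in A549 and 142 and 56 in HCC827, and COL3A1 had 25 and 8, and 3 and 0. COL1A1 was called higher with myr-AKT1 in the fit over both lines. Summed over these 7 markers, the level in CPM (reads scaled to the library total) was 30.4 with myr-AKT1 and 3.31 with vector in A549, and 14.9 and 5.46 in HCC827. The summed level was thus higher with myr-AKT1 in each line, and its part in the differences with myr-AKT1 was not tested. Fewer cells of a type and less RNA per cell cannot be told apart in bulk samples.

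The INK4 genes on 9p21 were read in HCC827 and not in A549, with either construct. CDKN2A had 0 reads in both A549 libraries, and in HCC827 it had 2055 reads with myr-AKT1 and 4344 with vector. CDKN2B, which encodes p15, had 0 reads in both A549 libraries, and in HCC827 it had 374 with myr-AKT1 and 573 with vector. For both genes the A549 libraries were empty and the HCC827 libraries were well above them. Against a floor of 3 reads per A549 library, which is what a count of 0 allows, CDKN2A was at least 1756-fold higher in HCC827 among the vector libraries and at least 966-fold higher among the myr-AKT1 libraries. CDKN2B was at least 232-fold and at least 176-fold higher in the same comparisons. At this depth an A549 level of up to 0.0563% of the HCC827 CDKN2A level among vector libraries, and up to 0.0946% among myr-AKT1 libraries, would have gone unseen. Having 0 reads in both A549 libraries and more than 3 in each HCC827 library was seen for 1.71% of the 19314 genes tested.

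The other INK4 genes were expressed in both lines. CDKN2C, which encodes p18, had 394 reads with myr-AKT1 and 583 with vector in A549, and 150 and 194 in HCC827. On the 4-library scale these are 409, 430, 220 and 173, so the A549 libraries lay above the HCC827 libraries without overlap. CDKN2D, which encodes p19, was scarce everywhere, with 53 reads with myr-AKT1 and 31 with vector in A549, and 55 and 36 in HCC827. Its 4-library values of 55.0, 22.8, 80.5 and 32.2 overlapped between the lines and were higher in the myr-AKT1 library of each.

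**Figure D1:**
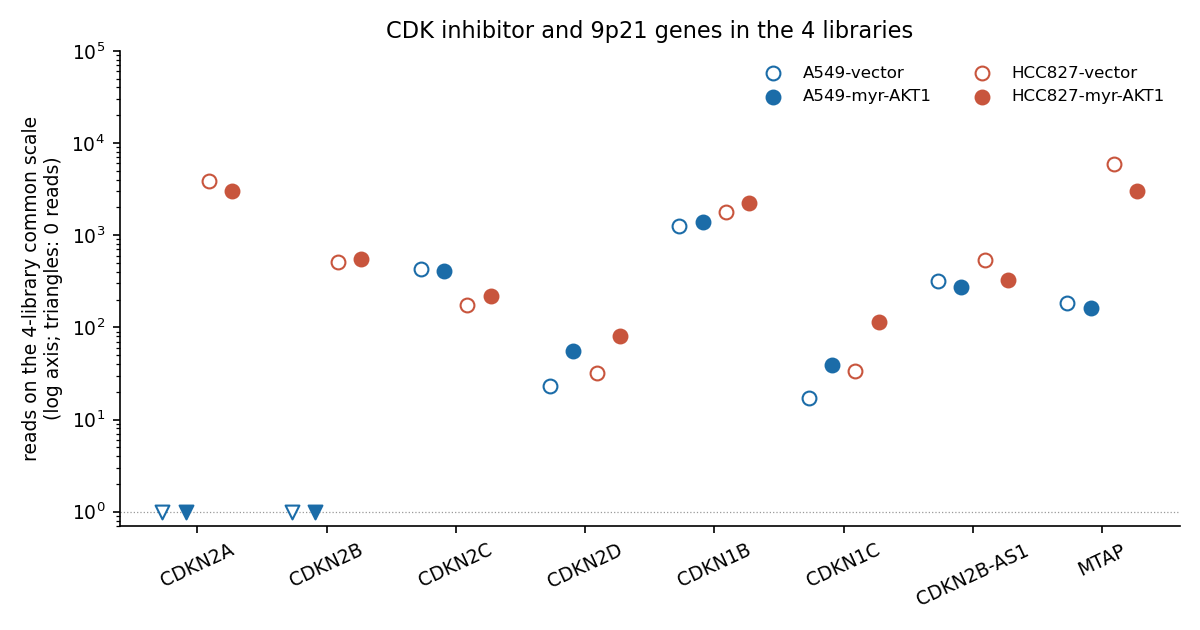
Reads of the 8 genes in each library on the 4-library common scale (log axis), with open symbols for vector, filled symbols for myr-AKT1 and triangles for 0 reads. CDKN2A and CDKN2B are empty in A549 only, MTAP is far lower in A549, and the symbols of CDKN1C and CDKN2D overlap between the lines.

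Levels of different genes were compared per length, as RPKM computed from the recovered reads (reads per kb of exon, scaled to the library total). The INK4 family summed in A549 to an RPKM of 6.58 with myr-AKT1 and 6.38 with vector, and in HCC827 to 43.4 and 49.4. CDKN2A made up 74.6% of the HCC827 sum with myr-AKT1 and 82.9% with vector, with CDKN2B at 13.2% and 10.6%. In A549 the whole sum came from the genes outside 9p21, with CDKN2C at 78.8% in A549-myr-AKT1 and 90.4% in A549-vector and CDKN2D supplying the rest. These shares describe mRNA, not the amount of inhibitor protein.

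**Figure D2:**
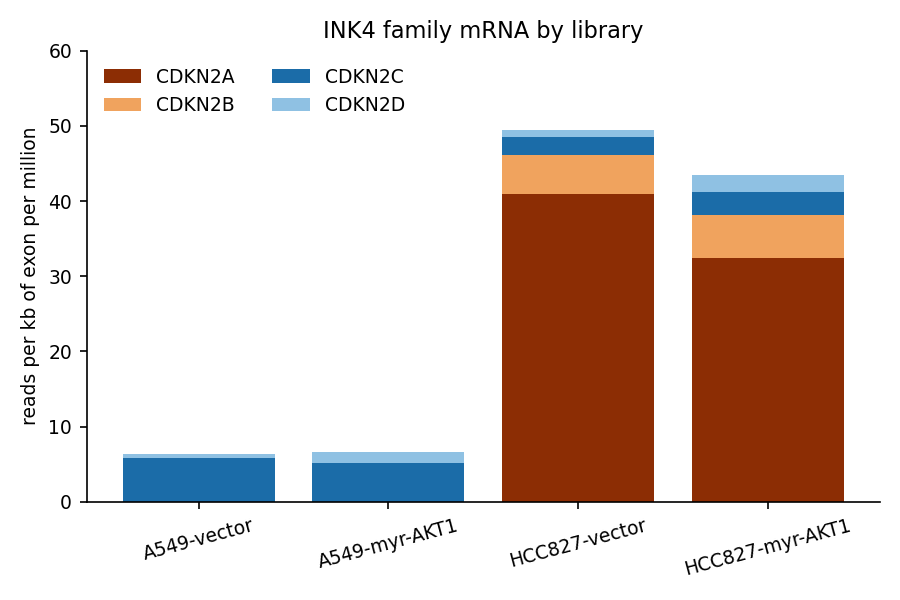
Stacked RPKM (reads per kb of exon, scaled to the library total) of the 4 INK4 genes in each library. The HCC827 bars reach 49.4 and 43.4 and are mostly CDKN2A, and the A549 bars reach 6.38 and 6.58 and hold only CDKN2C and CDKN2D.

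Among the KIP genes, CDKN1B, which encodes p27, was evenly expressed. It had 1346 reads with myr-AKT1 and 1714 with vector in A549, and 1519 and 1974 in HCC827. On the 4-library scale these are 1396, 1263, 2223 and 1764, and both HCC827 libraries lay above both A549 libraries. CDKN1C, which encodes p57 and is imprinted, had 38 reads with myr-AKT1 and 23 with vector in A549, and 78 and 38 in HCC827. Its 4-library values of 39.4, 16.9, 114 and 34.0 overlapped between lines, the highest being HCC827-myr-AKT1. Per length CDKN1B made up between 83.9% and 95.2% of the KIP sum in the 4 libraries, the lowest share being in HCC827-myr-AKT1.

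Ranked by RPKM within HCC827, CDKN2A came first at 32.4 with myr-AKT1 and 40.9 with vector. MTAP followed with 8.64 and 16.6 and CDKN1B with 10.1 and 7.81, and their ranges overlapped. CDKN2B had 5.73 and 5.24 and CDKN2C 3.05 and 2.35, apart from each other and from the rest. CDKN2D with 2.24 and 0.876, CDKN1C with 1.93 and 0.561 and CDKN2B-AS1 with 0.669 and 1.07 could not be ordered. In A549 the order was led by CDKN1B at 5.77 with myr-AKT1 and 5.52 with vector and CDKN2C at 5.18 and 5.76, which overlapped. CDKN2D followed at 1.40 and 0.614, above CDKN1C at 0.608 and 0.277 and MTAP at 0.432 and 0.513 and overlapping with CDKN2B-AS1 at 0.513 and 0.637. The last 3 could not be ordered. The length used was that of all annotated exons of a gene together, 14527 bases for MTAP and 3885 for CDKN2A. These orders thus depend on the annotation. By reads, MTAP had 6582 against 4344 for CDKN2A in HCC827-vector, and 2049 against 2055 in HCC827-myr-AKT1.

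MTAP, the methionine salvage enzyme, had 158 reads with myr-AKT1 and 250 with vector in A549, and 2049 and 6582 in HCC827. The HCC827 level was 31.9-fold higher among the vector libraries and 18.3-fold higher among the myr-AKT1 libraries, so the A549 signal was low but present. CDKN2B-AS1 had 264 reads with myr-AKT1 and 436 with vector in A549, and 223 and 594 in HCC827. On the 4-library scale its values were 274 and 321 in A549 and 326 and 531 in HCC827, with HCC827-myr-AKT1 just above A549-vector. The HCC827 level was 1.65-fold higher among the vector libraries and 1.19-fold higher among the myr-AKT1 libraries.

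The genes with clear HCC827 signal and no A549 read lay next to each other. Between chr9:21892188 and chr9:22009305, a stretch of 117 kb bounded by the outermost genes with at least 20 HCC827 reads and none in A549, 6 genes lay wholly inside, namely CDKN2A, CDKN2B, CDKN2A-DT, ERVFRD-3 and the unnamed ENSG00000279670 and ENSG00000266446. All 6 had reads in HCC827, 7571 in sum and mostly of CDKN2A, and none had a read in A549. The stretch was drawn from such genes, so CDKN2A, CDKN2B, ENSG00000279670 and ENSG00000266446 were empty in A549 by that choice. CDKN2A-DT and ERVFRD-3, not used for the choice, had only 2 and 13 reads in HCC827, so their 0 in A549 says little. Within 3 Mb of the CDKN2A start 9 genes had reads in HCC827 only, and the other 3 had at most 9 reads, 1 of them, ENSG00000265194, lying directly below the stretch with 6 reads. The bounds of the stretch are those of the annotated genes, so they do not place a breakpoint. Among the 3 genes that cross its edges, MTAP and CDKN2B-AS1 had reads in A549, and the annotated readthrough gene ENSG00000264545 had none in any library. Of the 14527 MTAP exon bases 7265 lie outside the stretch, and 12 of its 13 annotated transcripts start outside. Of the CDKN2B-AS1 exon bases 95.8% lie outside, although 22 of its 28 transcripts start inside, among them the RefSeq start shown above. Counts per gene do not show which exons the A549 reads came from. The CDKN2A exons share 593 bases, 15.3% of their length, with CDKN2B-AS1 on the opposite strand, and the strand setting of the counting is not given in the sources used here, so reads in the shared bases of HCC827 could belong to either. MTAP and CDKN2B-AS1 also share exon bases with ENSG00000264545, to which no read was counted. How reads in such shared bases were handled is not given.

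Within 3 Mb of the CDKN2A start, 109 genes were annotated, of which 37 had reads with myr-AKT1 and 36 with vector in A549, and 39 and 42 in HCC827. For 59 genes no library had a read, and these say nothing about the locus. At least 20 reads in HCC827 with 0 in A549 were found for 4 genes, CDKN2A, CDKN2B, ENSG00000279670 and ENSG00000266446, all in the stretch. The nearest genes with at least 20 A549 reads on either side, leaving out those that cross the stretch, were MIR31HG, the host lncRNA of miR-31, at 332 kb below and DMRTA1, a DMRT-family gene, at 438 kb above. DMRTA1 had 273 and 187 reads in A549-myr-AKT1 and A549-vector and 169 and 270 in the HCC827 pair. KLHL9, an adaptor of a cullin ubiquitin ligase, had 1568 and 2237 reads in A549 and 685 and 1160 in HCC827. Some neighbours were higher in A549. MIR31HG had 2706 and 1416 reads in A549-myr-AKT1 and A549-vector against 82 and 375 in HCC827 (line difference -3.09 on the log2 scale, limma adjusted p = 0.0157). HACD4, a fatty acid elongation enzyme, had 218 and 246 reads in A549 against 7 and 0 in HCC827. The line difference on 9p21 thus ran in both directions, with the A549-empty genes next to each other and the genes higher in A549 farther out.

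**Figure D3:**
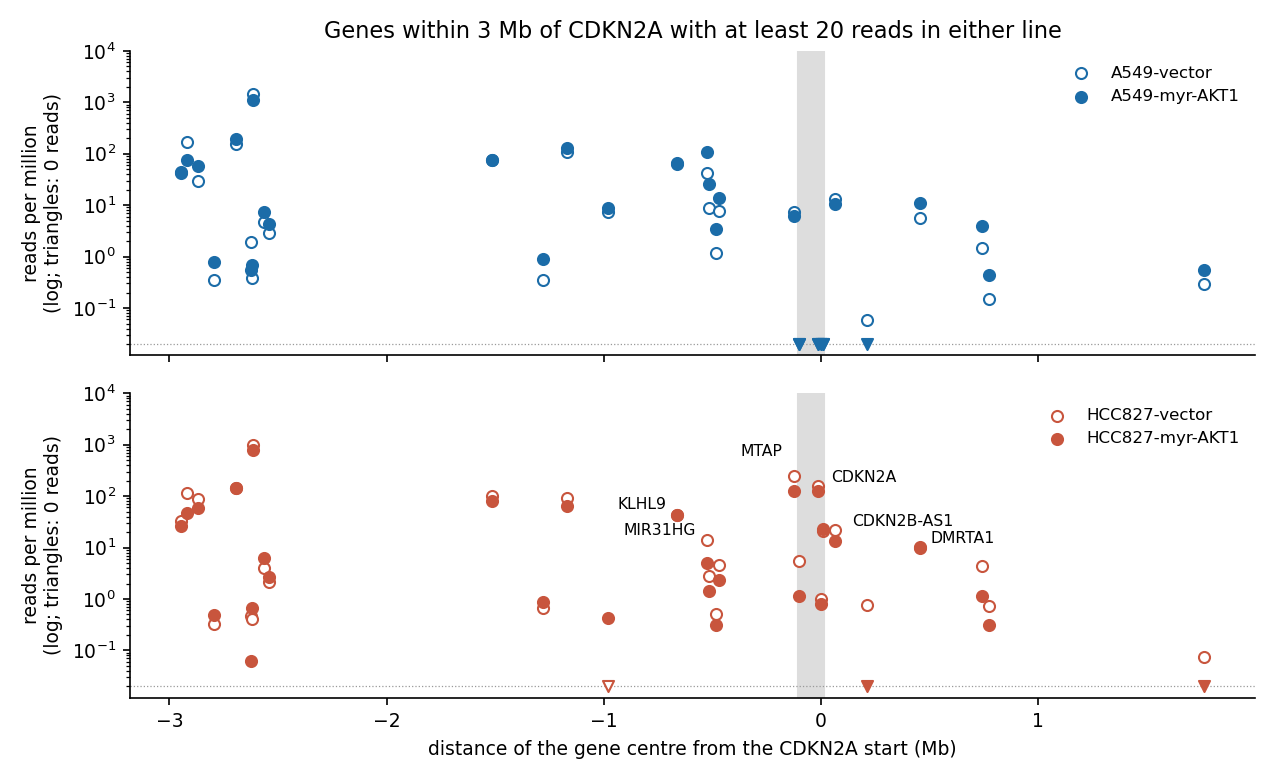
CPM (log axis, triangles for 0 reads) against the distance of the gene centre from the CDKN2A start in Mb, for genes with at least 20 reads in either line, in A549 (top) and HCC827 (bottom). The shaded band is the 117 kb stretch drawn between the outermost genes with at least 20 HCC827 reads and none in A549. Most points on either side have reads in both lines.

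The lines were then compared in a single fit over all 4 libraries with the construct as a term (limma on log2(value + 1), 1 residual degree of freedom), in which 29.2% of the 19314 genes differed between the lines, 13.8% higher in HCC827 and 15.4% higher in A549. Of the 6 genes with reads in both lines, MTAP was called, higher in HCC827 by 4.59 on the log2 scale (SE 0.303, limma adjusted p = 4.5e-04), and it was called under all 8 alternatives with a test. CDKN2A and CDKN2B were called higher in HCC827 as well, but they had passed the filter through HCC827 alone and so had to differ, and they are described by the bounds above. CDKN2C was lower in HCC827 by a fitted difference of -1.10 (SE 0.349), which missed the threshold (limma adjusted p = 0.0608) and passed it when all genes with at least 1 read were tested (0.0270), within a range of 0.0270 to 0.111 over the alternatives. CDKN1B (0.58, limma adjusted p = 0.122), CDKN1C (1.24, 0.167), CDKN2D (0.51, 0.546) and CDKN2B-AS1 (0.49, 0.321) were not called, with differences on the log2 scale. The libraries of the 2 lines did not overlap for 6 of the 8 genes, all but CDKN1C and CDKN2D, against 59.8% of all genes. HCC827 was above for 5 (28.9% of all genes) and A549 for CDKN2C (30.9%), so not overlapping sets none of them apart. With the construct as a term, the 1 residual degree of freedom holds how far the line difference varied between the constructs. limma also draws on the spread of other genes, so these p-values do not measure variation between replicate cultures.

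Within each line the myr-AKT1 library was set against the vector library, with 95% intervals that cover counting error only. None of the 8 genes passed the log2 fold change of 2 or -2 that the study used, in either line, where 6.89% of genes were above 2 and 3.62% below -2 in A549, and 6.13% and 3.87% in HCC827. CDKN2A and CDKN2B have no fold in A549. Past 1, the genes were CDKN1C and CDKN2D in A549 (2 of 6, against 18.2% of all genes above 1 and 12.4% below -1). In HCC827 CDKN1C and CDKN2D were above 1 (2 of 8, against 17.5%) and MTAP below -1 (1 of 8, against 14.1%). Among genes read as deeply as MTAP there, with at least 1000 reads summed over the HCC827 pair, 9.75% were below -1. The median over the genes was -0.07 in A549 and 0.17 in HCC827, with 0 over all genes in both lines.

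CDKN1C went from 20.1 normalized counts in A549-vector to 43.5 in A549-myr-AKT1, a log2 difference of 1.12 (0.33 to 1.93), and from 30.2 to 98.1 in the HCC827 libraries, 1.70, or 3.25-fold (2.18 to 4.92). CDKN2D went from 27.1 to 60.7 in A549, 1.16 (0.50 to 1.85), and from 28.6 to 69.2 in HCC827, 1.27 (0.64 to 1.92). Both inhibitors were thus higher with myr-AKT1 in each line, by amounts that differed between lines by less than the counting error. A value above 1 in both lines was seen for 5.72% of genes, and one above 0 in both, as CDKN1B, CDKN1C and CDKN2D had, for 29.9%. Among genes as thinly read as these, with 50 to 150 reads summed over a pair, 23.2% were above 1 in A549 and 22.3% in HCC827.

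CDKN1B, which encodes p27, went from 1497 to 1541 normalized counts in A549, a log2 difference of 0.04 (-0.06 to 0.15), and from 1569 to 1911 in HCC827, 0.28 (0.19 to 0.38). CDKN2C went from 509 to 451 in A549, -0.17 (-0.36 to 0.01), and from 154 to 189 in HCC827, 0.29 (-0.03 to 0.61), with both intervals holding 0. The p27 and p18 transcripts were thus within 0.29 of the vector level on the log2 scale in both lines. The HCC827 value was above the A549 value by 0.24 (0.10 to 0.38) for CDKN1B and by 0.47 (0.11 to 0.82) for CDKN2C, counting error only and with no test.

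Of the 8 genes, those on 9p21 were not higher with myr-AKT1 beyond counting error in either line. CDKN2A went from 3452 normalized counts in HCC827-vector to 2586 in HCC827-myr-AKT1, -0.42 (-0.49 to -0.34). Its neighbour CDKN2B went from 455 to 471, 0.05 (-0.14 to 0.24), and the counting intervals of the 2 INK4 genes of the locus did not overlap. MTAP went from 5231 to 2578 in HCC827, -1.02 (-1.09 to -0.95), the largest decrease among the 8 genes, and from 218 to 181 in A549, -0.27 (-0.57 to 0.02). CDKN2B-AS1 went from 472 to 281 in HCC827, -0.75 (-0.98 to -0.53), and from 381 to 302 in A549, -0.33 (-0.56 to -0.11). MTAP and CDKN2B-AS1 were below the vector level in both lines, as were 33.4% of all genes, and the HCC827 value was lower than the A549 value by -0.75 (-1.05 to -0.45) for MTAP and -0.42 (-0.73 to -0.10) for CDKN2B-AS1. Counting intervals excluded 0 for 3 of the 6 genes with a fold in A549, where 56.2% of all genes had such an interval, and for 6 of 8 in HCC827, where 56.3% had.

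**Figure D4:**
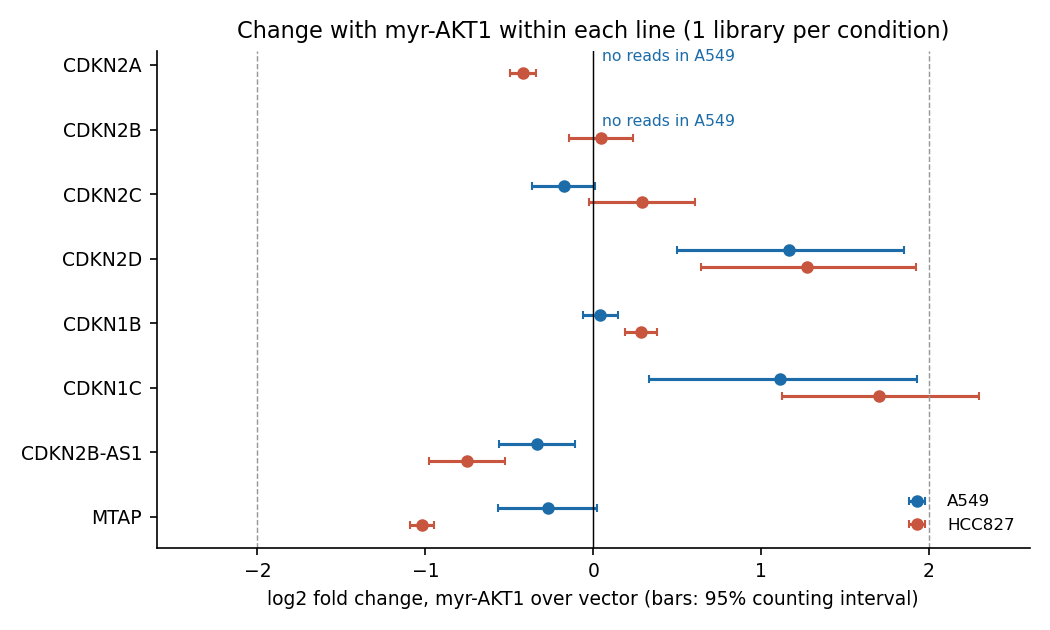
Log2 fold change of the myr-AKT1 over the vector library in each line, with 95% counting intervals and dashed lines at the study's threshold of 2 and -2. CDKN1C and CDKN2D lie above 1 in both lines, MTAP lies at -1.02 in HCC827, and no point passes a dashed line.

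With the line as a block (limma on log2(value + 1), 4 libraries), 1.29% of the 19314 genes were called higher and 1.73% lower with myr-AKT1, 3.03% in all, and none of the 8 genes was among them. None had an unadjusted p under 0.05 in this fit, and neither edgeR nor DESeq2 called any, DESeq2 giving no adjusted p for CDKN2D. The fitted log2 differences were 1.37 (SE 0.612, limma adjusted p = 0.289) for CDKN1C, 1.19 (SE 0.598, limma adjusted p = 0.345) for CDKN2D, -0.64 (SE 0.305, limma adjusted p = 0.317) for MTAP and -0.54 (SE 0.350, limma adjusted p = 0.475) for CDKN2B-AS1. The others lay between -0.21 for CDKN2A and 0.16 for CDKN1B. For CDKN2A and CDKN2B, with 0 reads in both A549 libraries, the fit took A549 as unchanged. Their fitted values rest on HCC827 alone, and a change in both lines could not be seen for them. Treating the lines as repeats leaves 1 residual degree of freedom, so a missed threshold does not show that the 8 genes were level.

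The targets and partners of the inhibitors were read from lists. Of 13 CDK and cyclin genes, the treatment fit tested 12 and called 3, all lower with myr-AKT1, against 1.73% of all genes called lower. They were CDK1, the mitotic kinase (log2 -1.83, SE 0.339, limma adjusted p = 0.0349), CCNE2, a cyclin E (-2.25, SE 0.403, 0.0317), and CCNA2, cyclin A (-2.25, SE 0.365, 0.0259). These calls, and the others of this fit named below, were lost without the line as a block and with a pseudocount of 0.1, and that of CDK1 was lost under 4 of the 8 alternatives. The list median was -0.53 in A549 and -0.92 in HCC827. For this list and those below, the median over all genes was 0 in both lines. The direct INK4 targets were not called. CDK6 had 8947 normalized counts in A549-vector and 5056 in A549-myr-AKT1, and 8302 and 3039 in HCC827 (limma adjusted p = 0.0674). CDK4 had 2822 and 1871 in A549 and 47490 and 19954 in HCC827 (limma adjusted p = 0.124).

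CDK4 also set the lines apart. Its HCC827 level was 22.4-fold higher among the vector libraries and 13.7-fold higher among the myr-AKT1 libraries, a fitted log2 difference of 4.13 (SE 0.274, limma adjusted p = 4.6e-04). The line with CDKN2A transcript was thus also the line with the higher CDK4 transcript. Their common target RB1 had reads in all libraries, 1361 and 2091 in A549-myr-AKT1 and A549-vector and 714 and 1839 in the HCC827 pair.

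Of 10 RB and E2F genes, 1 was called lower and none higher with myr-AKT1 (1.73% and 1.29% of all genes). The one called was RBL1, the RB relative p107 (log2 -1.82, SE 0.303, limma adjusted p = 0.0271). E2F2, an activating E2F, had the lowest value of the list in A549 at -3.64 (-4.14 to -3.18) and -1.40 in HCC827 (-1.88 to -0.94), and was not called (limma adjusted p = 0.0803). The list median was -0.67 in A549 and -0.76 in HCC827. Below -1 were 4 of the 10 genes in A549 and 2 in HCC827 (12.4% and 14.1% of all genes), and none was above 1. Of 9 genes for p27 turnover, 1 was called lower and none higher (1.73% and 1.29% of all genes). It was SKP2, the F-box protein that marks p27 for destruction (log2 -1.53, SE 0.271, limma adjusted p = 0.0307). Its cofactor CKS1B was at -1.93 in A549 and -0.90 in HCC827 and was not called (limma adjusted p = 0.0576). CDKN1B transcript was within 0.28 of its vector level in both lines.

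The 4 FOXO genes, whose products AKT phosphorylates, had medians of 0.82 in A549 and 1.08 in HCC827, and none was called. FOXO4 had the highest value among those with at least 50 counts, 1.02 (0.75 to 1.29) in A549 and 1.65 (1.42 to 1.88) in HCC827 (limma adjusted p = 0.121). Of 13 Polycomb genes that are known to act on the INK4 locus, 1 was called lower and 1 higher (1.73% and 1.29% of all genes). EZH2, the H3K27 methyltransferase, fell by 1.27 on the log2 scale (SE 0.259, limma adjusted p = 0.0463), and KDM6B, which removes that mark, rose by 1.73 (SE 0.347, limma adjusted p = 0.0440). The call of EZH2 was lost under 6 of the 8 alternatives and that of KDM6B under 4. CDKN2A and CDKN2B in HCC827 were at -0.42 and 0.05 beside these changes. None of 8 transcription factor genes of the INK4 loci was called, and their medians were -0.06 and -0.03. Among those with at least 50 counts, ETS2 was highest in both lines, at 1.52 in A549 and 0.63 in HCC827. ETS1 was lowest in HCC827 at -0.92, and MYC was lowest in A549. MYC, a repressor of CDKN2B, went from 5331 to 1595 normalized counts in A549 and from 4302 to 3741 in HCC827 (limma adjusted p = 0.209).

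None of 13 genes for methionine salvage and PRMT5, the methyltransferase that methylthioadenosine inhibits, was called for myr-AKT1. Their medians were -0.53 in A549 and -0.66 in HCC827, beside -0.27 and -1.02 for MTAP itself. PRMT5 went from 4562 to 1974 normalized counts in A549, -1.21 (-1.29 to -1.13), and from 3558 to 2118 in HCC827, -0.75 (-0.83 to -0.67) (limma adjusted p = 0.0912). MAT2A, which makes S-adenosylmethionine, was at -0.53 and -1.25. Between lines, where MTAP differed by at least 18.3-fold, PRMT5 was 1.04-fold higher in HCC827 among vector and 1.38-fold among myr-AKT1 libraries and was not called (limma adjusted p = 0.465).

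**Figure D5:**
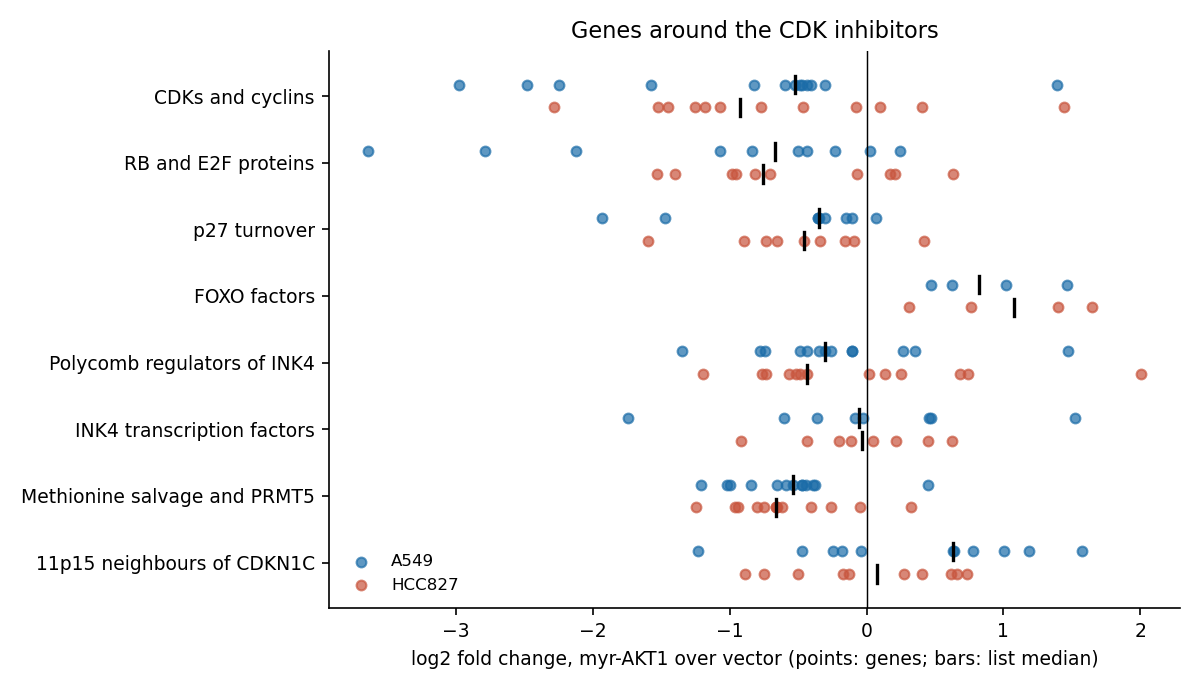
Log2 fold change of the myr-AKT1 over the vector library for each gene of the 8 lists, in A549 and HCC827, with black bars at the list medians. The CDK and cyclin list has medians of -0.53 and -0.92, the RB and E2F list -0.67 and -0.76, and the FOXO list 0.82 and 1.08.

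CDKN1C sits in the imprinted 11p15 domain, where the antisense lncRNA KCNQ1OT1 is known to silence the gene in cis on the paternal copy. KCNQ1OT1 had 4179 reads in A549-myr-AKT1, 3539 in A549-vector and 0 in both HCC827 libraries. Against 3 reads per library it was at least 973-fold higher in A549 among vector libraries and at least 987-fold higher among myr-AKT1 libraries. CDKN1C itself was 2.004-fold higher in HCC827 among vector libraries and 2.90-fold higher among myr-AKT1 libraries, with overlapping lines and without being called. Of 15 genes listed for 11p15, the fit tested 11, and none was called for myr-AKT1, whereas 3 were called higher in A549 (against 15.4% of all genes), KCNQ1OT1 among them through A549 alone, and 1 higher in HCC827 (against 13.8%).

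By likeness of pattern, measured as the distance between centred log2 profiles over the 4 libraries among 14068 genes, CDKN1B lay nearest to MPLKIP (0.0046) and ZZEF1 (0.033). CDKN2C lay nearest to ZSWIM7 (0.050) and VPS35L (0.062), CDKN2D to RALGPS1 (0.049) and SLC25A29 (0.129), and CDKN2B-AS1 to ZNHIT6 (0.036) and ZNF644 (0.052). CDKN1C lay nearest to ENSG00000278948 (0.137) and PDXDC2P-NPIPB14P (0.161). MTAP had no near match, its closest genes being ENSG00000231881 (0.306) and LANCL2 (0.420). With 4 libraries such closeness is common, and 254 genes lay within 0.25 of CDKN1B, against 83 for CDKN2C, 149 for CDKN2B-AS1, 10 for CDKN2D, 8 for CDKN1C and 0 for MTAP.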

How the data were processed

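The authors sequenced 4 strand-specific libraries, mapped the reads to hg38 with Bowtie2 and counted genes with HTSeq. The paper's Methods describe poly(A) selection, the labels removal of ribosomal RNA. The deposited signal is called RPKM in the Methods, but each value is the gene's read count over a size factor, 1 for each library, which the authors estimated within a line. Reads were recovered by dividing by the worth of 1 read, and at least 99.996% of the values with reads in each library came out whole (tolerance 0.001). Of 60558 identifiers, 60261 matched GENCODE 44.

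Fold changes within a line used the deposited values, with 95% Clopper-Pearson intervals. PCR reads are not independent molecules, so intervals and the floor of 3 reads cover counting error only. Lines were compared on median-of-ratios factors over 4 libraries. Fits used limma 3.58.1 on log2(value + 1) with a mean-variance trend, Benjamini-Hochberg adjustment over 19314 genes and a threshold of 0.05; a log2 change on this scale understates that of low genes. edgeR 4.0.16 and DESeq2 1.42.0 on recovered reads were alternatives, and the fits were tested on simulated data. The rule for the 8 genes uses no measured value, but they and the lists were proposed with earlier results of these data known. Named genes were drawn by rule from the 8 genes, AKT1, the highest and lowest of each list (mean of at least 50), 9p21 genes with at least 20 reads and the 2 nearest patterns. Not all list extremes and 9p21 genes within that rule are described. Named outside that rule, after their values were seen, were called list genes, CDK4, CDK6, RB1, KCNQ1OT1, CDKN2A-DT, ERVFRD-3, ENSG00000264545, ENSG00000265194 and markers. One marker of another cell type is not reported here.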

Additional observations from a re-analysis of the deposited data

Results flagged for a closer look

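Of 44 genes checked, 5 had changes with myr-AKT1 in opposite directions in the 2 lines, with counting intervals that excluded 0 in both. None of the 8 inhibitor and 9p21 genes was among the 5, and CDKN2A and CDKN2B, without a fold in A549, could not be. Genes not checked can meet the same rule, as MNAT1 did (-0.30 in A549, 0.40 in HCC827). Of all genes with a fold in both lines, 33.4% were below 0 in both and 29.9% above 0 in both. Counting intervals excluded 0 for 56.2% of genes in A549 and 56.3% in HCC827. How many of all genes met the full rule was not counted. With 1 library per condition the difference between lines was not tested. CCND3, cyclin D3, which the INK4 proteins keep from CDK4 and CDK6, was at -0.48 in A549 and 1.44 in HCC827. PHLDA2, an imprinted 11p15 neighbour of CDKN1C, was at 0.77 in A549 and -0.89 in HCC827. MIR31HG, on 9p21, was at 1.33 in A549 and -1.53 in HCC827. IFNE, an interferon gene that lies within MIR31HG on the same strand so that reads could be shared, was at 1.49 and -1.08. LINC01239, an lncRNA above DMRTA1 on 9p21, was at 1.38 in A549 and -1.98 in HCC827.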

How the results depend on the processing

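No paired analysis was possible because the labels give no replicate numbers, beyond the block on cell line, which sets the libraries of a line against each other and is part of the reported treatment fit. Under no replicate block, and with a pseudocount of 0.1, the treatment fit called 0 of the 8 genes, as it did under all 8 alternatives. CDKN2A and CDKN2B, empty in A549, are counted here although only their HCC827 libraries could differ. With a threshold of 1 in place of 2 the counts were 2 above in A549, 2 above in HCC827 and 1 below in HCC827. When the filter kept every gene with a read anywhere, the line fit called 1 gene higher in A549, CDKN2C. A window of 1 Mb held 18 genes with reads with myr-AKT1 and 16 with vector in A549, and 21 with each construct in HCC827, fewer because the window is smaller. Of 56 values of within-line folds under TMM, total reads, 4-library factors or a pseudocount of 1, 54 stayed within their counting interval and 2 did not, both under total reads in HCC827 (CDKN2A -0.34, MTAP -0.94). The treatment difference of CDKN2A reversed from -0.21 to 0.027 under DESeq2 and was called in neither. It was the single reversal among the 8 genes, and it concerns a gene with 0 reads in both A549 libraries. Of the list genes called for myr-AKT1, CCNA2, CCNE2, RBL1 and SKP2 were called under 6 of 8 alternatives, CDK1 and KDM6B under 4 and EZH2 under 2. CDKN1C and CDKN2D, with 23 to 78 reads per library, are the genes whose precision depth limits most.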
